A study of Mus musculus with 16 samples.

Results

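The genes described here build the regulated exocytosis machinery, the proteins that carry a stored secretory granule to the plasma membrane and fuse it there. They were 38 of the 45513 genes counted, chosen by function and by name: 8 secretory Rabs, 8 Rab effectors and motors, 13 SNAREs and priming factors, and 9 genes best known from neurons and endocrine cells. The choice was made with earlier results of these data known, so their shares beside those of all genes are a description. The 16 libraries came from sorted small-intestinal epithelium of 8 adult C57BL/6 mice of both sexes. Each mouse gave 1 library of EpCAM+tdTom+ cells (group tdTompositive) and 1 of EpCAM+tdTom- cells (group tdTomnegative), so the libraries of a mouse are paired. All mice carried Atoh1(WT)CreERT2 on both alleles and R26RtdTom on 1, and per the labels all received 1 mg tamoxifen daily for 3 days. CreERT2 was placed downstream of the Atoh1 coding sequence, so the reporter marks cells that expressed Atoh1, the transcription factor of the intestinal secretory lineage, and whatever those cells gave rise to afterwards. Per the paper's methods, cells for sorting came from pooled crypt-enriched fractions of the proximal small intestine, and the villus-enriched fraction was thrown away. The tdTom- fraction is the remaining EpCAM+ epithelium of this preparation and not a pure cell type.

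In regulated exocytosis, small GTPases of the Rab3 and Rab27 families sit on mature granules and recruit effectors, among them the synaptotagmin-like proteins (Sytl) and the myosin linker Myrip, which tether granules to the cytoskeleton and the membrane. A vesicle SNARE (Vamp) then pairs with membrane SNAREs (a syntaxin and a Snap25 relative), guided by Munc18 proteins (Stxbp) and primed by Munc13 proteins (Unc13), while synaptotagmins (Syt) sense calcium. Goblet cells release mucin this way, Paneth cells antimicrobial proteins, and enteroendocrine cells hormones and amines. Absorptive enterocytes use many of the same SNAREs for constitutive traffic to the apical and basolateral membranes.

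Most Rab and effector genes were higher in tdTom+ cells, whereas the SNARE group held genes that were higher, lower and without a call. Of the 36 genes that passed the filter on low counts, 23 were higher and 4 lower in tdTom+ cells at an adjusted p under 0.01, where 22.7% and 27.0% of all 15323 genes tested were called in these directions and 49.6% in either. Levels are CPM, counts scaled to a common library total with TMM factors, and fold changes are log2 estimates of edgeR's quasi-likelihood test with Benjamini-Hochberg adjustment over all genes tested. The members' median log2 fold change was 1.17, beside 0.01 over all genes. The CPM of both fractions did not overlap for 23 of the 36, a pattern seen in 31.6% of all genes tested. Per group, 7 of 7 tested secretory Rabs were higher, as were 6 of 8 effectors and motors, 7 of 8 tested neuroendocrine genes and 3 of 13 SNAREs and priming factors. Rab26 and Syt1 lay below the filter and were not tested. The filter can be passed through tdTom+ libraries alone, as by Rab3b, Myrip and Sytl5, whose tdTom- counts were at most 12, 7 and 14, so these counts are a description. With 10 counts required of each library, 20 members were higher and 3 lower, with 6 secretory Rabs and 5 effectors and motors called.

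**Figure D1:**
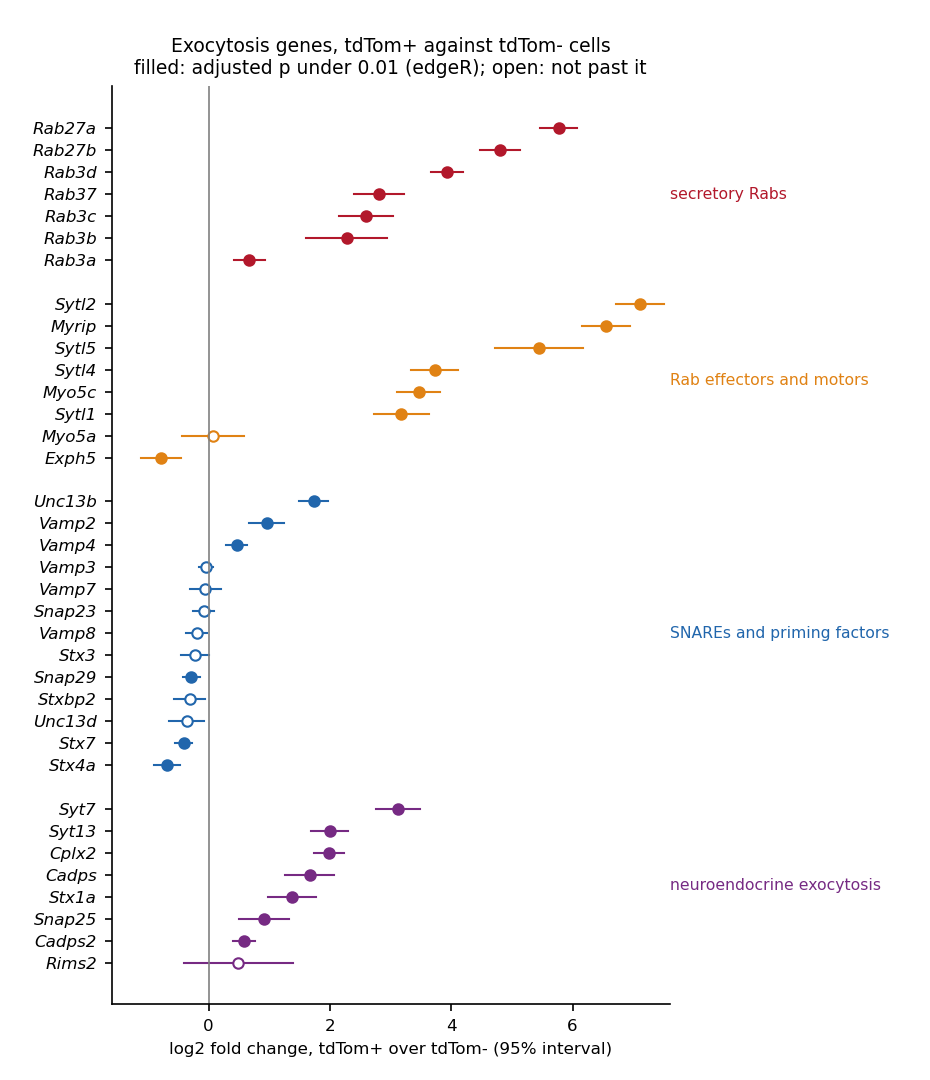
Log2 fold changes (tdTom+ over tdTom-, horizontal axis) of the 36 tested genes, ordered within the 4 groups, with 95% intervals from the edgeR fit; filled points passed an adjusted p of 0.01 and open points did not. Secretory Rabs and effectors reach 7.11, while the SNAREs and priming factors lie between -0.68 and 1.73.

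The sorted fractions were checked against marker genes of 8 cell types. All 8 goblet markers and all 8 Paneth markers were higher in tdTom+ cells, with summed levels of 128000 to 264000 against 952 to 1510 CPM and of 51300 to 137000 against 400 to 584 CPM. All 8 absorptive markers were lower, at 1560 to 6020 against 14600 to 38300 CPM. All 8 enteroendocrine markers were higher, at 2080 to 3210 against 621 to 1120 CPM, and so were 6 of 7 tested tuft markers, at 101 to 403 against 23.4 to 133 CPM. Immune markers were low, at 5.51 to 26.1 against 10 to 136 CPM, with 3 of 7 tested lower in tdTom+ cells. The mast cell list summed to 1.25 to 2.68 against 0.10 to 5.02 CPM, and its 1 tested gene, Tpsb2, was higher (log2 6.21, adjusted p = 1.13e-10). Tpsb2 had 23 to 49 counts per tdTom+ and 0 to 1 per tdTom- library, so it passed the filter through tdTom+ libraries alone. The other 7 lay below the filter. Of these, Mcpt1 averaged 0.06 against 0.92 CPM and Mcpt2 0.02 against 0.37 CPM, and only Cma1 averaged higher in tdTom+ cells, at 0.01 against 0 CPM. The neuron and glia list summed to 10.4 to 18.2 against 2.51 to 8.96 CPM, and 1 of its 2 tested genes, Ret, was higher (log2 1.30, adjusted p = 2.62e-05). The part of these markers in the results was not tested. The tdTom- libraries of mice 7 and 8 stood apart, with 14600 and 24800 CPM of absorptive and 123 and 136 CPM of immune markers, where the other tdTom- libraries had at most 35.7 CPM of the latter. Without both libraries of these mice 23 members were higher and 6 lower, Vamp8 and Stxbp2 being the additions. Library totals ran from 17116405 to 25323567 counts. In RNA of a whole fraction, fewer cells of a type and less RNA per cell cannot be told apart.

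To show what the upstream sequence of the genes that moved holds, windows of 250 bases before RefSeq transcription starts (GRCm38.p6) were searched for E-boxes, the words bound by basic helix-loop-helix factors, the class Atoh1 belongs to. Both strands were searched for 3 words, the first being CAGCTG. The others were CATATG and, with its reverse complement, CAGATG. Further E-box words were not searched, so a window can hold E-boxes that are not marked or counted here. Windows were present for 26 members, with 31 starts. CAGCTG was in 10 of these 31 windows and in 13.00% of all 32851 windows, CATATG in 1 and in 3.46%, and CAGATG in 1 and in 14.44%. The 10 CAGCTG windows belong to 9 genes, of which Rab27a, Rab3a, Rab3c, Sytl1, Cplx2 and Stx1a were higher in tdTom+ cells and Stx4a and Stx7 lower, and Syt1 was not tested. Both Stx7 windows overlap and hold the same CAGCTG, at -60 and -88. The Cplx2 window ends at 54302555, far upstream of the annotated gene start at 54371349. Rab27a also has a window with none of the 3 words, chr9:73044560-73044809, beside its annotated gene start. The 3 windows below belong to a strongly higher Rab with a pair of the searched words, a Rab with 1, and a motor gene with none of them. Capitals mark the matches. The first lies before an internal start of Rab27a on the plus strand, chr9:73063898-73064147, outside the annotated exons of that gene, with the matches starting at -26 and -15. The second lies before Rab3c on the minus strand, chr13:110280207-110280456, with the match at -108. The third lies before Myo5c on the plus strand, chr9:75231764-75232013. Each runs 5′ to 3′ in the direction of transcription. A match says only that these letters are present.
Rab27a: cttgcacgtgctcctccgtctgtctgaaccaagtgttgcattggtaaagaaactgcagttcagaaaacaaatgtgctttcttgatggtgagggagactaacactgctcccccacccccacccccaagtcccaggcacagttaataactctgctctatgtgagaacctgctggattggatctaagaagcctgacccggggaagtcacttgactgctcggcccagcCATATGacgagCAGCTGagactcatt
Rab3c: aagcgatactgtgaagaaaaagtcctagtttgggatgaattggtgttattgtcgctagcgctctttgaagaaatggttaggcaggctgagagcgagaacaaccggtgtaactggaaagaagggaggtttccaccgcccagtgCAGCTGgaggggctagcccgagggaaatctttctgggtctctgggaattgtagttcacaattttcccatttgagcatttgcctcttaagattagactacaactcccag
Myo5c: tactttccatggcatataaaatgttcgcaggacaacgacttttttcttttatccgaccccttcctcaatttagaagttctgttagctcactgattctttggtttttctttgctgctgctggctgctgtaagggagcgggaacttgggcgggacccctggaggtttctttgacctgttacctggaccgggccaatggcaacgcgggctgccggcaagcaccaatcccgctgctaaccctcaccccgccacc

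The secretory Rabs came first in the order of roles, and 3 of them dominated. Their summed level was 547 to 819 CPM in tdTom+ and 31.2 to 41 CPM in tdTom- libraries. Rab27a (chromosome 9, 73044854 to 73097629, plus strand), which drives granule docking in many secretory cells, had a lowest, median and highest level of 139, 186 and 238 CPM in tdTom+ and 2.51, 3.54 and 4.07 CPM in tdTom- libraries. It was 54.6-fold higher (log2 5.77 ± 0.14 SE, adjusted p = 6.53e-16). Its exons share 149 bases with Gm27186 on the same strand. Rab27b (chromosome 18), its close relative, ran from 160 over 225 to 276 CPM in tdTom+ and from 5.57 over 7.93 to 10.2 CPM in tdTom- libraries, a log2 change of 4.80 ± 0.16 (adjusted p = 1.28e-14). Rab3d (chromosome 9, 21907491 to 21918192, minus strand), the Rab3 form of exocrine zymogen granules, ran from 201 over 262 to 282 CPM against 12.8 over 15.7 to 23.2 CPM, a log2 change of 3.93 ± 0.12 (adjusted p = 8.35e-15). In all 3 genes the lowest tdTom+ library was far above the highest tdTom- library. The tdTom+ libraries of mice 6 and 7 were the lowest for Rab27a and Rab27b, and those libraries also had the second lowest and the lowest summed goblet markers, a relation that was not tested.

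The other secretory Rabs were low in both fractions. Rab37, a Rab of mast cell and endocrine granules, had 12.3 ± 2.98 CPM (SD, n = 8) in tdTom+ and 1.75 ± 0.51 CPM in tdTom- libraries (log2 2.81 ± 0.19, adjusted p = 6.25e-10). Rab3c, one of the neuronal Rab3 forms, had 15.2 ± 4.79 and 2.53 ± 0.73 CPM (log2 2.59 ± 0.21, adjusted p = 4.64e-09). Rab3b had only 11 to 37 counts per tdTom+ library and 1 to 12 per tdTom- library, with a log2 change of 2.28 ± 0.32 (adjusted p = 4.9e-06). These 3 genes did not overlap between fractions. Rab3a, the main Rab of synaptic vesicles, differed least, with 5.16, 6.31 and 8.10 CPM as lowest, median and highest in tdTom+ and 3.10, 3.87 and 5.36 CPM in tdTom- libraries (log2 0.67 ± 0.12, adjusted p = 0.000123). The ranges of Rab3a overlapped, although it was higher in tdTom+ cells of 8 of 8 mice. Rab26, a Rab of zymogen and synaptic vesicles, had 2 to 12 counts per tdTom+ and 0 to 4 per tdTom- library, and its exons share 267 bases with Traf7. On a scale of CPM per kilobase of exon, which allows genes to be set side by side, the tdTom+ order was Rab3d at 59.6 ± 7.09, Rab27a at 48.3 ± 9.48 and Rab27b at 20.5 ± 4.09, followed by Rab3a at 2.93 ± 0.46, Rab37 at 2.31 ± 0.56 and Rab3c at 1.79 ± 0.56. In tdTom- cells it was Rab3d at 3.92 ± 0.80, Rab3a at 1.83 ± 0.33, Rab27a at 0.88 ± 0.13 and Rab27b at 0.74 ± 0.15, and the other Rabs lay lower. Neighbours that differed by less than the sum of their SDs were Rab3d and Rab27a, Rab3a and Rab37, and Rab37 and Rab3c in tdTom+ cells, and Rab27a and Rab27b in tdTom- cells.

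The largest changes among the members were those of Sytl2 and Myrip, in the group of Rab effectors and motors. The group summed to 391 to 739 CPM in tdTom+ and 51 to 69.1 CPM in tdTom- libraries, with a median log2 change of 3.59. Sytl2 (chromosome 7, 90348699 to 90410439, plus strand), a Rab27 effector that tethers granules to membrane lipids, was at 165, 255.5 and 339 CPM as lowest, median and highest in tdTom+ and at 1.278, 1.82 and 2.49 CPM in tdTom- libraries. Its log2 change of 7.11 ± 0.19 (138.1-fold, adjusted p = 1.23e-15) was the largest among the 36 tested members. Myrip (chromosome 9, 120303936 to 120474841, plus strand), which links Rab27 to myosin and actin, was at 14.8, 20.4 and 24.3 CPM against 0.10, 0.21 and 0.32 CPM (log2 6.55 ± 0.19, adjusted p = 2.66e-15), the latter from only 2 to 7 counts per library. Sytl5 was at 5.61, 10.1 and 13.2 CPM against 0, 0.22 and 0.59 CPM (log2 5.44 ± 0.35, adjusted p = 2.06e-10), with 0 to 14 counts in tdTom- libraries. The tdTom- levels of Myrip and Sytl5 thus rest on few counts, and the error of the Sytl5 change was the widest of the group.

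Another pair of synaptotagmin-like genes and a myosin followed. Sytl4 (granuphilin, known from insulin granules) was at 23.9 ± 3.85 against 1.80 ± 0.72 CPM (log2 3.73 ± 0.18, adjusted p = 5.77e-12). Sytl1 was at 22.4 ± 3.26 against 2.44 ± 1.202 CPM (log2 3.18 ± 0.21, adjusted p = 4.38e-10), its tdTom- value being highest in mouse 8 at 5.15 CPM. Myo5c (chromosome 9, 75232014 to 75305451, plus strand), the myosin V of exocrine glands, was at 134, 208 and 290 CPM in tdTom+ and at 14.0, 19.8 and 24.9 CPM in tdTom- libraries (log2 3.46 ± 0.17, adjusted p = 3.33e-12). Myo5a, the myosin V of melanocytes and neurons, was at 1.46 ± 0.54 and 1.40 ± 0.52 CPM, with a log2 difference of 0.07 and a 95% interval from -0.45 to 0.58 (adjusted p = 0.832). Exph5, a Rab27-binding protein also called Slac2-b, was the one effector that was lower, at 16.4, 19.0 and 22.0 CPM against 18.4, 33.5 and 48.0 CPM (log2 -0.79 ± 0.16, adjusted p = 0.000254). Its tdTom+ levels were tightly grouped and its tdTom- levels wide, lowest in mice 8 and 7, the mice with the fewest absorptive marker counts in that fraction. The part of the absorptive markers in this result was not tested.

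**Figure D2:**
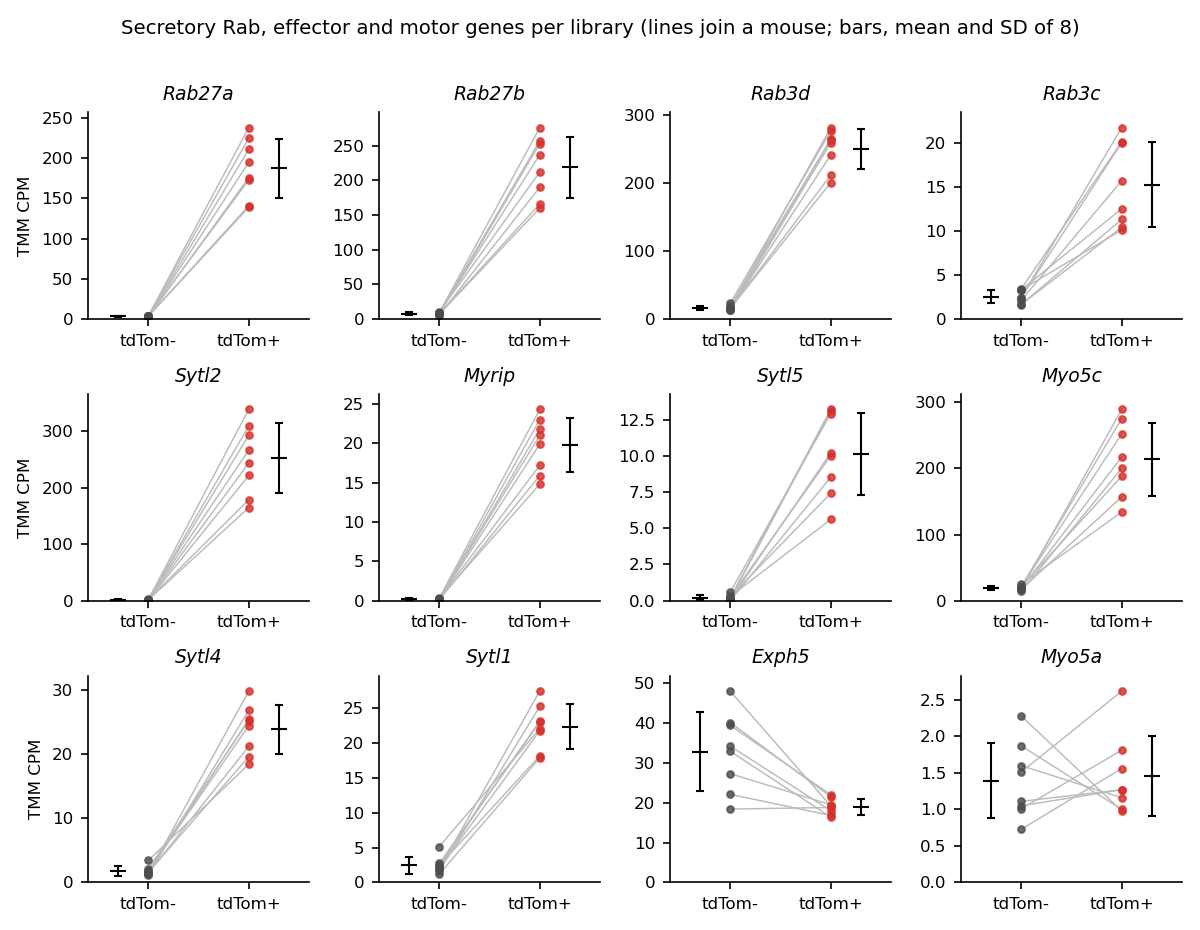
CPM (vertical axes, from 0) of 12 secretory Rab, effector and motor genes in the 8 tdTom- and 8 tdTom+ libraries, with grey lines joining the fractions of a mouse and bars giving mean and SD. Exph5 was lower in tdTom+ cells of all mice but 1, Myo5a went either way, and the other 10 genes shown were higher in every mouse.

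The SNARE and priming genes moved in both directions, at shares near those of all genes. Their summed level was 608 to 796 CPM in tdTom+ and 584 to 808 CPM in tdTom- libraries, and the median log2 change was -0.20. Of 13 genes 3 were higher, 3 lower and 7 not past the threshold, and 5 did not overlap between fractions, so that 6 of 13 were called beside 49.6% of all genes tested, and 5 of 13 did not overlap beside 31.6%. Unc13b (Munc13-2, chromosome 4, 43058953 to 43264871, plus strand), which primes vesicles for fusion, changed most, with 84.4, 105 and 140 CPM as lowest, median and highest in tdTom+ and 25.4, 34.0 and 36.7 CPM in tdTom- libraries (log2 1.73 ± 0.11, adjusted p = 2.61e-10). Vamp2 (chromosome 11, 69088490 to 69092384, plus strand), the vesicle SNARE of synaptic and many exocrine granules, had 38.6, 45.6 and 61.7 CPM against 15.3, 24.5 and 31.1 CPM (log2 0.96 ± 0.14, adjusted p = 6.63e-06). Vamp4, a SNARE of the trans-Golgi and immature granules, had 9.85 ± 0.84 against 7.14 ± 0.75 CPM (log2 0.46 ± 0.08, adjusted p = 6.89e-05). All 3 were higher in 8 of 8 mice with no overlap.

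The SNAREs that were lower act at the cell surface and in endosomes. Stx4a (chromosome 7, 127824294 to 127849019, plus strand), a syntaxin of the basolateral membrane, had 24.5, 28.9 and 34.5 CPM in tdTom+ and 35.0, 48.4 and 54.9 CPM in tdTom- libraries (log2 -0.68 ± 0.10, adjusted p = 1.2e-05). Stx7, a syntaxin of late endosomes, had 61.5 ± 4.53 against 81.7 ± 8.47 CPM (log2 -0.41 ± 0.07, adjusted p = 3.79e-05). Neither overlapped. Snap29, a Snap25 relative of endosomes and autophagosomes, had 37.6 ± 2.74 against 45.9 ± 4.56 CPM (log2 -0.29 ± 0.07, adjusted p = 0.00112). The Snap29 ranges overlapped, and its call was lost without replicate 3 (adjusted p = 0.0515) and when 10 counts were required of each library (adjusted p = 0.0374).

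The 7 genes without a call included the vesicle SNAREs Vamp3, Vamp7 and Vamp8. Vamp3 had 93.6 ± 6.81 and 96.3 ± 5.04 CPM, with a 95% interval of the log2 difference from -0.16 to 0.08, and Snap23 had 33.4 ± 3.25 and 35.3 ± 4.42 CPM, with an interval from -0.25 to 0.09. These intervals exclude a log2 difference of the size seen for Vamp2. Vamp7, on an unlocalised X scaffold of this build, had 32.5 ± 6.38 and 33.8 ± 5.98 CPM (interval -0.31 to 0.20). Vamp8, the vesicle SNARE of goblet, pancreatic and salivary granules, had 68.2, 82.6 and 94.2 CPM in tdTom+ and 76.8, 96.4 and 110.8 CPM in tdTom- libraries, with an interval from -0.38 to -0.02 (adjusted p = 0.0515). Without mice 7 and 8, Vamp8 was lower by a log2 of -0.25 (adjusted p = 0.00581). Stx3, the apical syntaxin, had 58.2 ± 7.91 and 68.1 ± 11.2 CPM, and was lower in tdTom+ cells of every mouse at an adjusted p of 0.0794. Stxbp2 (Munc18-2), the partner of Stx3 in epithelia, had 106.5 ± 17.3 and 132.2 ± 24.1 CPM (log2 -0.31 ± 0.12, adjusted p = 0.0323). With mouse added as a replicate block, so that paired libraries were compared, Stxbp2 was called lower (log2 -0.31, adjusted p = 0.00045). In that fit Vamp8 had an adjusted p of 0.0104 and Stx3 of 0.0154, neither past the threshold. Unc13d (Munc13-4), known from cytotoxic lymphocyte and mast cell granules, had 4.01 ± 0.79 and 5.16 ± 0.90 CPM (adjusted p = 0.0277). Its highest value, 6.80 CPM, was in tdTom- cells of mouse 7, a library with 123 CPM of immune markers, whose part in this difference was not tested.

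**Figure D3:**
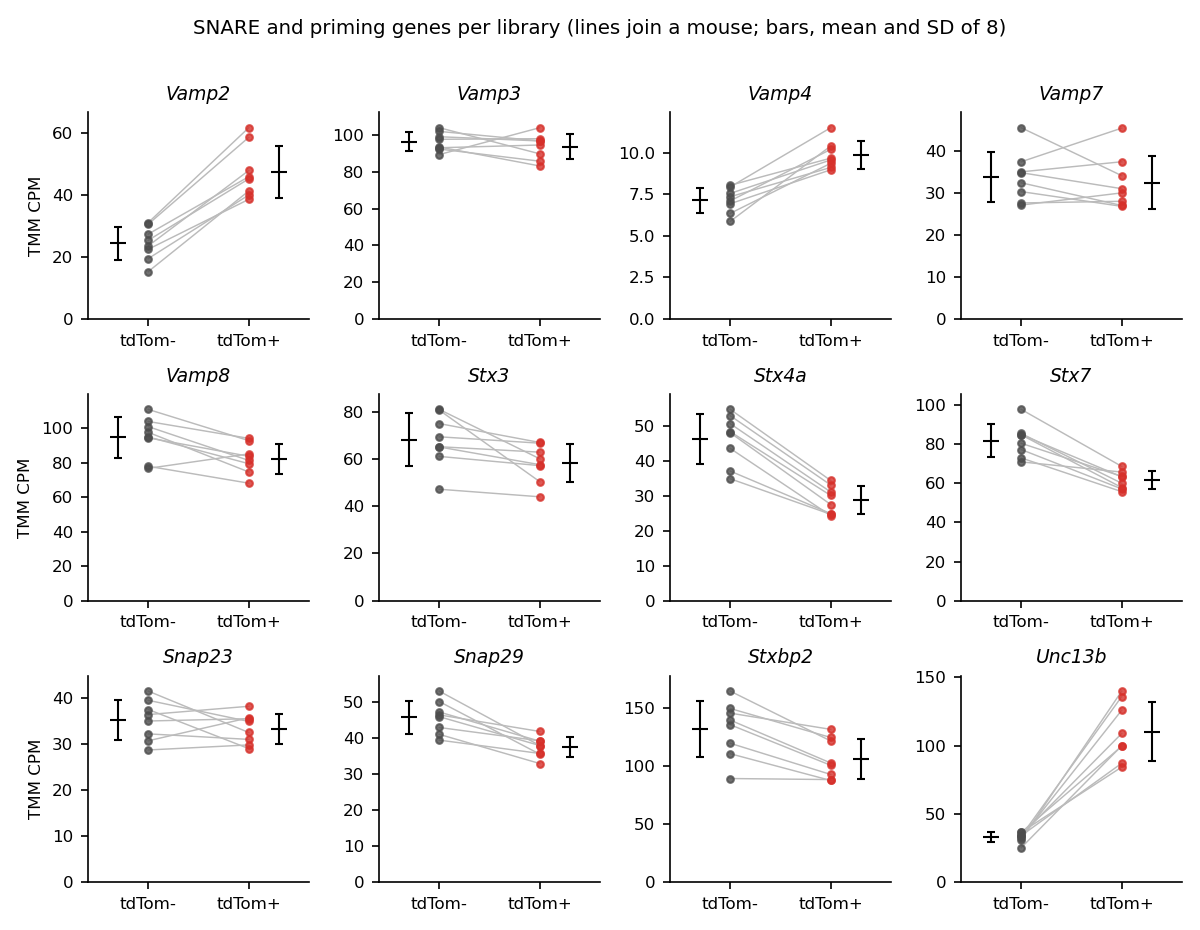
CPM (vertical axes, from 0) of 12 SNARE and priming genes in the 8 tdTom- and 8 tdTom+ libraries, with lines joining the fractions of a mouse and bars giving mean and SD. Unc13b, Vamp2 and Vamp4 are higher in every tdTom+ library than in any tdTom- library, Stx4a and Stx7 are lower, and Vamp3, Vamp7 and Snap23 overlap widely.

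Genes best known from neurons and endocrine cells were mostly higher but at low levels. They summed to 144 to 210 CPM in tdTom+ and 41.8 to 57 CPM in tdTom- libraries, with a median log2 change of 1.52. Syt7 (chromosome 19, 10389090 to 10453181, plus strand), a slow, high-affinity calcium sensor, made up the largest part, with 63.1, 84.9 and 108 CPM as lowest, median and highest in tdTom+ and 5.84, 10.2 and 14.4 CPM in tdTom- libraries (log2 3.13 ± 0.17, adjusted p = 3.03e-11). Syt13, a synaptotagmin thought not to bind calcium, had 16.5 ± 3.49 against 4.13 ± 0.81 CPM (log2 1.99 ± 0.15, adjusted p = 1.26e-09). Cplx2, a complexin that clamps and assists SNARE complexes, had 26.1 ± 4.997 against 6.62 ± 0.89 CPM (log2 1.98 ± 0.12, adjusted p = 9.07e-11). No library of one fraction reached the range of the other for these 3 genes.

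The priming factors and neuronal SNAREs followed. Cadps, a dense-core vesicle priming factor, had 8.14 ± 1.64 against 2.57 ± 0.82 CPM (log2 1.66 ± 0.19, adjusted p = 3.87e-07), and its relative Cadps2 had 29.5 ± 2.91 against 19.7 ± 2.84 CPM (log2 0.58 ± 0.09, adjusted p = 1.27e-05). Stx1a, the neuronal syntaxin, had 3.88 ± 1.07 against 1.48 ± 0.37 CPM (log2 1.38 ± 0.19, adjusted p = 3.98e-06). Snap25, its SNARE partner, had 6.49 ± 1.47 against 3.44 ± 1.16 CPM with overlapping ranges (log2 0.91 ± 0.19, adjusted p = 0.000492). Rims2, an active zone scaffold that binds Rab3, varied widely, from 1.39 to 4.67 CPM in tdTom+ and from 0.31 to 4.65 CPM in tdTom- libraries, with a 95% interval of the log2 difference from -0.40 to 1.39 (adjusted p = 0.341). It was higher in tdTom+ cells of 7 of 8 mice. With the replicate block its adjusted p was 0.0371 (log2 0.62), still not past the threshold. Syt1, the fast calcium sensor of synapses, had 3 to 7 counts per tdTom+ and 0 to 2 per tdTom- library. The enteroendocrine markers, which define the cells these genes are known from in the gut, had log2 changes from 1.09 to 3.96, with a median of 1.43. In the neuron and glia list, Sox10 had no count in any library.

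Whether these genes followed the enteroendocrine markers from mouse to mouse was examined over the 8 tdTom+ libraries, with a score equal to the mean log2 CPM of the 8 markers, which ran from 6.89 in mouse 1 to 7.52 in mouse 7. Of 8 genes, 4 had an adjusted exact permutation p under 0.05. Cplx2 gave a Pearson r of 0.975 (exact permutation p = 0.000124, adjusted 0.000992) and a Spearman rho of 0.976 (exact permutation p = 0.000397, adjusted 0.00317). Syt13 gave an r of 0.956 (exact permutation p = 0.000322, adjusted 0.00129) and a rho of 0.952 (exact permutation p = 0.00114, adjusted 0.00456). Leaving out the 2 libraries farthest from the median score left r at 0.964 and 0.944. Cadps gave an r of 0.90 (exact permutation p = 0.00811, adjusted 0.0216) and Snap25 an r of 0.838 (exact permutation p = 0.0129, adjusted 0.0259), both with a rho of 0.833 (exact permutation p = 0.0154, adjusted 0.0308), and without the 2 farthest libraries r was 0.903 and 0.761. Stx1a, with an r of 0.738 and a rho of 0.762 (exact permutation p = 0.0388 and 0.0368, adjusted 0.062 and 0.0588), fell to 0.503 without the 2 farthest libraries and did not pass. Cadps2 had an r of 0.717 and a rho of 0.714 (exact permutation p = 0.0529 and 0.0576, adjusted 0.0705 and 0.0768), with 0.813 without those libraries. Syt7 had an r of 0.285 and a rho of 0.167 (exact permutation p = 0.486 and 0.703, adjusted 0.556 and 0.804), with 0.745 without them, and Rims2 an r of 0.0209 and a rho of 0 (exact permutation p = 0.96 and 1, adjusted 0.96 and 1), with -0.726 without them. Without replicate 5 the count of genes that passed was 2. Gene and score come from the same libraries and share their scaling. How many of all genes tested follow this score was not examined, so the 4 of 8 have no background share beside them.

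**Figure D4:**
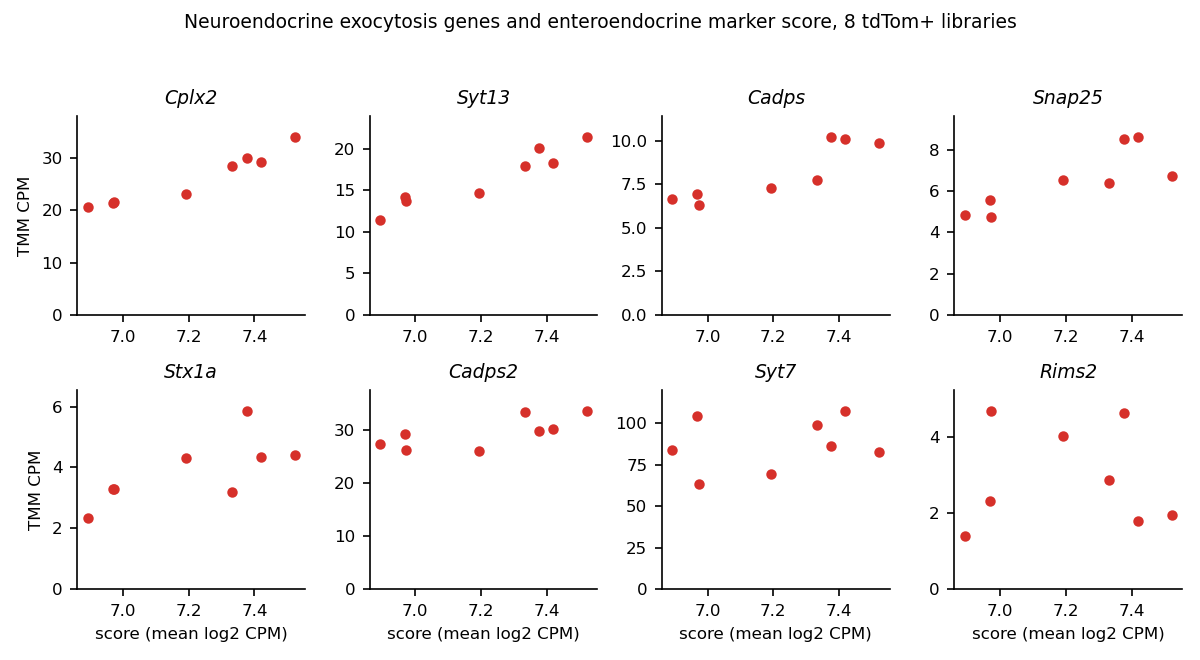
CPM (vertical axes, from 0) of the 8 tested neuroendocrine exocytosis genes against the enteroendocrine marker score (horizontal axes, mean log2 CPM of 8 markers), 1 point per tdTom+ library, whereas the correlations used log2 CPM. Cplx2 and Syt13 climb with the score, whereas Syt7 and Rims2 show no such order.

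For pairs of related genes, the ratio within a library was compared between the fractions. Whether the genes of a pair can stand in for each other was not tested. The ratio was taken on log2 CPM with a prior count of 2, which shrinks ratios of genes with few counts. Of 15 pairs fixed, 13 could be tested, since Rab26 and Syt1 were below the filter, and 12 passed an adjusted p of 0.05 in an exact permutation test (two-sided, 12870 assignments). Each difference largely restates the gap between the fold changes of its 2 genes given above. How often other gene pairs would pass was not examined, so the count of pairs is a description. The smallest p this design allows is 0.000155, which 10 of the pairs reached (adjusted 0.000202). The Rab3d to Rab3a ratio was higher in tdTom+ cells by a log2 of 3.27 ± 0.38 (SD over 8 mice), and per kilobase Rab3d exceeded Rab3a 20.2-fold there and 2.095-fold in tdTom- cells. The Myo5c to Myo5a ratio was higher by 3.36 ± 0.81, and the Rab3b to Rab3a ratio by 1.36 ± 0.92 (exact permutation p = 0.000777, adjusted 0.000918). With a prior count of 0.5 the last value was 1.71.

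Within the Rab27 module the balance also shifted. Rab27b relative to Rab27a was lower in tdTom+ cells by a log2 of -0.94 ± 0.25, in 8 of 8 mice, so that per kilobase it stood at 0.42 of Rab27a in tdTom+ and 0.81 in tdTom- cells. Sytl4 relative to Sytl2 was lower by -3.31 ± 0.60, from 1.284 per kilobase in tdTom- to 0.13 in tdTom+ cells. Both genes of each pair were higher in tdTom+ cells, and these values give the unequal size of the changes. Sytl2 changed 138.1-fold, within the range of the goblet and Paneth markers, from 71.6-fold (Agr2) to 208.2-fold (Mptx2). Whether its tdTom- level came from secretory cells left in that fraction was not tested. The tdTom- ratio of Sytl4 to Sytl2 may therefore not describe the other cells there.

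Among the SNAREs, Vamp2 gained on Vamp8 by a log2 of 1.16 ± 0.23, from 0.15 to 0.35 of its level per kilobase. Vamp7 over Vamp8 differed by 0.14 ± 0.16 (SD over 8 mice, exact permutation p = 0.39 without regard to pairing). Snap25 gained on Snap23 by 1.01 ± 0.59 and Stx1a on Stx3 by 1.54 ± 0.44, but per kilobase Snap25 stayed at 0.12 of Snap23 and Stx1a at 0.12 of Stx3 in tdTom+ cells. Stx4a fell against Stx3 by -0.46 ± 0.25, which brought it from 1.44 to 1.05 times the level of Stx3 per kilobase. Snap29 fell against Snap23 by -0.21 ± 0.09 (exact permutation p = 0.00482, adjusted 0.00522). Unc13d fell against Unc13b by -2.07 ± 0.29, and Cadps2 against Cadps by -1.09 ± 0.61. An exact sign-flip permutation test over the 8 mice, which keeps the libraries paired as a replicate block, also passed 12 pairs. The smallest possible exact sign-flip permutation p, 0.00781, was reached by 11 of them. Vamp7 over Vamp8 was the pair that did not pass (exact sign-flip permutation p = 0.0547, adjusted 0.0547). Its ratio was higher in tdTom+ cells of 7 of 8 mice.

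**Figure D5:**
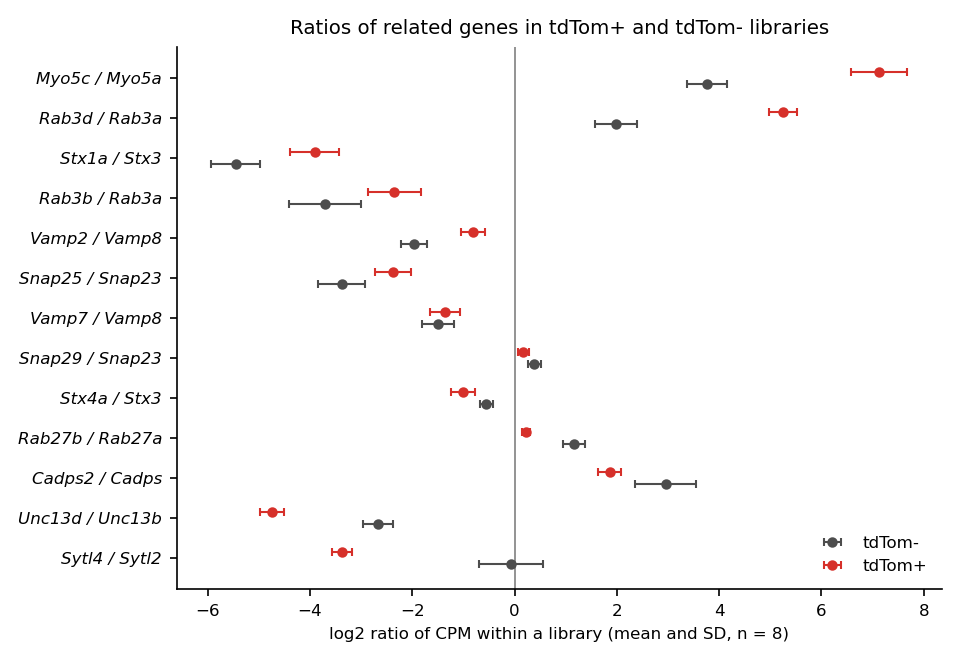
Log2 ratio of CPM of 13 gene pairs within a library (horizontal axis), as mean and SD over 8 tdTom- and 8 tdTom+ libraries. Rab3d over Rab3a moves from 1.98 to 5.25 and Sytl4 over Sytl2 from -0.07 to -3.37, while Vamp7 over Vamp8 overlaps.

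Of the other genes of the pathway, 35 of the 68 tested were called, 17 higher and 18 lower, beside 49.6%, 22.7% and 27.0% of all genes tested, shares close to the background. Among SNARE recycling factors and Munc18 relatives, 4 of 14 were higher and none lower (10 did not pass, and with the replicate block 5 were higher and 2 lower). Stxbp6 (amisyn) had a log2 change of 2.30 ± 0.10 (adjusted p = 4.48e-13) and Napa (alpha-SNAP) of 0.30 ± 0.05 (adjusted p = 7.54e-05).

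Among other Rabs, regulators and effectors, 5 of 18 tested were higher and 7 lower, and with the replicate block 6 were higher and 7 lower. Rab15 had 185.8 ± 22.0 against 10.3 ± 3.51 CPM (log2 4.17 ± 0.17, adjusted p = 2.51e-13), and melanophilin (Mlph), a Rab27 effector that binds myosin Va, 215.4 ± 34.6 against 19.7 ± 5.74 CPM (log2 3.45 ± 0.17, adjusted p = 4.4e-12). Rph3al (Noc2), a Rab3 and Rab27 effector, had a log2 change of 1.32 ± 0.16 (adjusted p = 7.09e-07). The lower genes included Sytl3 (log2 -2.79 ± 0.26, adjusted p = 3.18e-08), which was thereby opposite to the 4 Sytl members, and Rab17 (log2 -1.34 ± 0.15, adjusted p = 2.58e-07), a Rab of polarised epithelia. Myo5b, the myosin V of apical recycling in enterocytes, had 147.4 ± 16.5 against 276.7 ± 43.0 CPM (log2 -0.91 ± 0.10, adjusted p = 2.28e-07), so the 3 myosin V genes comprised a higher Myo5c, a lower Myo5b and a Myo5a without a call.

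Of 21 other SNAREs tested, 3 were higher and 5 lower, and with the replicate block 2 were higher and 8 lower. Stx17, a syntaxin of autophagosomes, was highest in change (log2 1.92 ± 0.07, adjusted p = 1.3e-13), followed by Bet1l (0.45 ± 0.07, adjusted p = 2.98e-05) and Snap47 (0.24 ± 0.07, adjusted p = 0.00777), whose call was lost with the replicate block (adjusted p = 0.0113). Vamp5 was lower (log2 -2.73 ± 0.26, adjusted p = 3.27e-08), as were the endosomal Stx12 (-0.64 ± 0.08, adjusted p = 7e-07) and the Golgi SNARE Gosr2 (-0.43 ± 0.07, adjusted p = 2.44e-05). Of the 9 exocyst subunits, which tether vesicles at the plasma membrane, 2 were higher, Exoc5 (log2 0.67 ± 0.08, adjusted p = 1.15e-06) and Exoc4 (0.37 ± 0.08, adjusted p = 0.000934), and 5 lower, led by Exoc6 (-0.63 ± 0.07, adjusted p = 2.44e-07), Exoc1 (-0.37 ± 0.08, adjusted p = 0.000687) and Exoc6b (-0.26 ± 0.06, adjusted p = 0.00142). With the replicate block 2 were higher and 4 lower. Summed exocyst levels were 233 to 267 CPM in tdTom+ and 241 to 267 CPM in tdTom- libraries. Of 19 other calcium sensors and clamps only 6 passed the filter, with 3 higher, among them Syt14 (log2 3.86 ± 0.22, adjusted p = 3.94e-11), and 1 lower, Syt12 (log2 -3.13 ± 0.28, adjusted p = 1.51e-08).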

How the data were processed

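Per the labels, sorted live cells were lysed, RNA was purified on RNeasy Micro Plus columns, and a stranded TruSeq mRNA kit was used. For the secretory signature, which is the comparison made here, the study's methods give the same daily tamoxifen as the labels, although their paragraph on RNA sequencing names a single injection. The authors aligned reads to GRCm38 with TopHat2 2.1.1 and deposited raw counts per gene for each library, made with featureCounts on the reverse strand (1.5.0-p1 in the file headers, Subread 1.5.2 in the submitters' processing notes). Symbols came from GENCODE for 44671 of the 45513 gene IDs, and 842 had none.

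The members and lists were chosen with earlier results of these data known. Counts were fitted with edgeR 4.0.16 in R 4.3.3 (quasi-likelihood test, TMM, filterByExpr, 15323 genes, adjusted p under 0.01). Intervals of 95% come from the same fit. The code was also run on simulated unpaired libraries in which far fewer genes changed, and by less. That run does not test the fit under changes as many and as large as those here. Correlations and pair ratios used log2 CPM with a prior count of 2. The test across fractions used no block, since the study's methods name none, so its SEs and intervals leave the pairing of libraries unused. Titles give both libraries of an animal the same number, and the series design takes both fractions from each mouse. In the data, same-numbered libraries deviated together with a mean correlation of 0.426 (0.245 to 0.634) against -0.0569 for others, and 8 of 8 matched best with their own number. DESeq2 1.42.0 and limma 3.58.1 (voom) served as alternatives. All members are described. Of each pathway list, up to 3 called genes per direction with the largest change and at least 5 CPM in the higher fraction are named. A gene that the rule would name is not reported here.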

Additional observations from a re-analysis of the deposited data

Results flagged for a closer look

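Of 72 sets of 8 libraries (36 tested members in 2 fractions), 1 held a library far from the rest. Unc13b in tdTom- cells of mouse 5 was the lowest, at a log2 CPM of 4.67 where the other 7 tdTom- libraries lay between 4.97 and 5.20, and its gap to the next library was 0.560 of the whole range. Chance picks out about 1 set in 20, or 3.6 of 72.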

How the results depend on the processing

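Over 19 alternatives (other scaling, tools, filters, thinned depth, the replicate block and leaving out mice, 1 of them, without mice 7 and 8, added after the data were seen), 662 of 679 log2 fold changes of the 36 tested members kept their direction and their side of the threshold, and 29 members did so throughout. When a change of 1 or more in size on the log2 scale was required, 0 members were lower and 1 gene of the SNARE and priming group was called. Leaving out 1 mouse at a time gave 23 to 23 higher and 3 to 5 lower members, 5 to 7 calls among SNAREs and priming factors, 12 pairs, 7 calls in each of the other groups, and 2 to 5 correlated genes, the 2 without replicate 5. With the replicate block 23 members were higher and 5 lower, 40 pathway genes outside the members were called in place of 35, and of the members only the call of Stxbp2 changed. The genes whose sign turned had no call in any of these fits. Leaving out 1 mouse at a time put Myo5a between -0.0823 and 0.2584, below 0 without replicates 1, 4 and 6, Vamp3 between -0.0778 and 0.0545, Vamp7 between -0.1172 and 0.0257, and Snap23 between -0.1193 and 0.0419, the last 3 above 0 without replicate 3. With at least 10 counts in every library, Vamp3 was at 0.0769, Vamp7 at 0.0636 and Snap23 at 0.0394. This filter and leaving out replicate 3 moved the median of all genes by 0.119 and 0.103 on the log2 scale. Snap29 lost its call in both (-0.17 and -0.18), and Stxbp2 gained one with DESeq2 and the replicate block (-0.30, adjusted p = 0.000152), without replicate 7 (-0.34, adjusted p = 0.00888) and without mice 7 and 8 (-0.34, adjusted p = 0.00589). The causes were not tested. Depth limits Rab26, Syt1, Rab3b and the tdTom- levels of Myrip and Sytl5, which rest on 14 counts or fewer per library.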
